A study of Mus musculus with 15 samples.

Results

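The 10 genes described here belong to the Bcl2 family, the proteins that set whether a cell keeps or loses the integrity of its mitochondria. They were taken by symbol from the gene count tables (Mcl1, Bcl2, Bcl2l1, Bcl2l11, Bax, Bak1, Bid, Bad, Bbc3 and Pmaip1), 1 row each of 54390 rows in all. All 10 had enough counts to be tested, among 14237 tested genes.

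The family works through 3 kinds of protein. Mcl1, Bcl2 and Bcl2l1 (Bcl-xL) are pro-survival members that hold the others in check, Bax and Bak1 are the effectors that open the outer mitochondrial membrane and release cytochrome c, and Bid, Bcl2l11 (Bim), Bad, Bbc3 (Puma) and Pmaip1 (Noxa) are BH3-only proteins that carry death signals to them. Mcl1 is a short-lived protein, and its transcript is usually abundant in myeloid cells.

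RNA was sequenced from BV2 cells, an immortalized mouse microglial line, in 4 groups: WT cells in media alone (WT non-foamy, n = 4), WT cells given 20 μg/ml soluble cholesterol overnight (WT foamy, n = 4), Trem2-/- cells in media alone (Trem2-/- non-foamy, n = 3) and Trem2-/- cells given the same cholesterol (Trem2-/- foamy, n = 4). Trem2 is a myeloid surface receptor for lipids. Per the methods, the cholesterol was carried by methyl-beta-cyclodextrin, for which media alone is no vehicle control, and the knockout was made with a guide against Trem2 in a Cas9-expressing BV2 clone, from which single Trem2-/- clones were grown. The labels name no clone and do not say whether the WT cells were that Cas9 clone, so genotype and clonal origin cannot be told apart. The labels also do not say that replicates were separate cultures, so p-values measure the spread between these libraries, which may be technical.

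Each library held 23538963 to 41683825 counted reads, and a group's libraries differed by more than counting noise. Levels are in CPM, counts scaled to a common library size with TMM factors, and a gene is called when its adjusted p (edgeR's quasi-likelihood test, Benjamini-Hochberg over all tested genes) is under 0.05. Trem2 itself stood at 329, 345, 415 and 327 CPM in WT non-foamy libraries, at 337, 372, 400 and 383 CPM in WT foamy ones, at 232, 214 and 220 CPM in Trem2-/- non-foamy ones and at 227, 227, 218 and 226 CPM in Trem2-/- foamy ones. Trem2-/- libraries were thus lower without overlap (0.628-fold without cholesterol, adjusted p = 2.85e-07), but reads still fell on the gene, and a count over the whole gene does not show whether the transcript is edited. The paper reports loss of Trem2 protein in its Trem2-/- BV2 cells, by flow cytometry after cholesterol. Of 14 microglia and macrophage markers, 13 were tested. Cd68 and Tyrobp were abundant (at least 1136 and 1099 CPM in every library), whereas the microglial markers Tmem119, P2ry12 and Cx3cr1 had group means of at most 1.76 CPM and Sall1 was at 0. The summed markers were 4218 to 5195 CPM in WT and 6442 to 6800 CPM in Trem2-/- libraries. In Trem2-/- cells, 8 of the 13 were called higher (all genes 21.0% without and 14.3% with cholesterol) and 2 lower in either state. The lower ones were P2ry12, at 0.351-fold and 0.461-fold of WT, and Cx3cr1, at 0.196-fold and 0.508-fold. The part of this difference in the results below was not tested. Of 12 markers of other cells, 7 were at 0 in every library and all 12 summed to 0.817 to 2.63 CPM.

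Without cholesterol, the Trem2-/- cells carried more Mcl1 and Bcl2l11 transcript and less Bcl2, Bcl2l1, Bid, Bax and Bak1 than WT cells. These were 7 of the 10 genes called, against 43.6% of all tested genes in this comparison, 2 higher (background 21.0%) and 5 lower (background 22.6%). With cholesterol, 5 of the 10 were called against 30.2% of all genes: Mcl1 and Bcl2l11 were higher (background 14.3%), and Bcl2, Bcl2l1 and Bid were lower (background 15.9%). Few of them were called for the response to cholesterol. In WT cells 1 gene, Mcl1, was called, against 2.8% of all genes, and in Trem2-/- cells none was called, against 0.14% of all genes, with 2 at an unadjusted p under 0.05 (Mcl1 and Bax) and 1 called by DESeq2 (Mcl1). The median absolute log2 difference over the 10 genes was 0.46 between the genotypes without cholesterol, beside 0.32 over all tested genes, and 0.33 beside 0.22 with cholesterol. In bulk RNA, fewer cells that express a gene and less of its RNA per cell cannot be told apart.

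**Figure D1:**
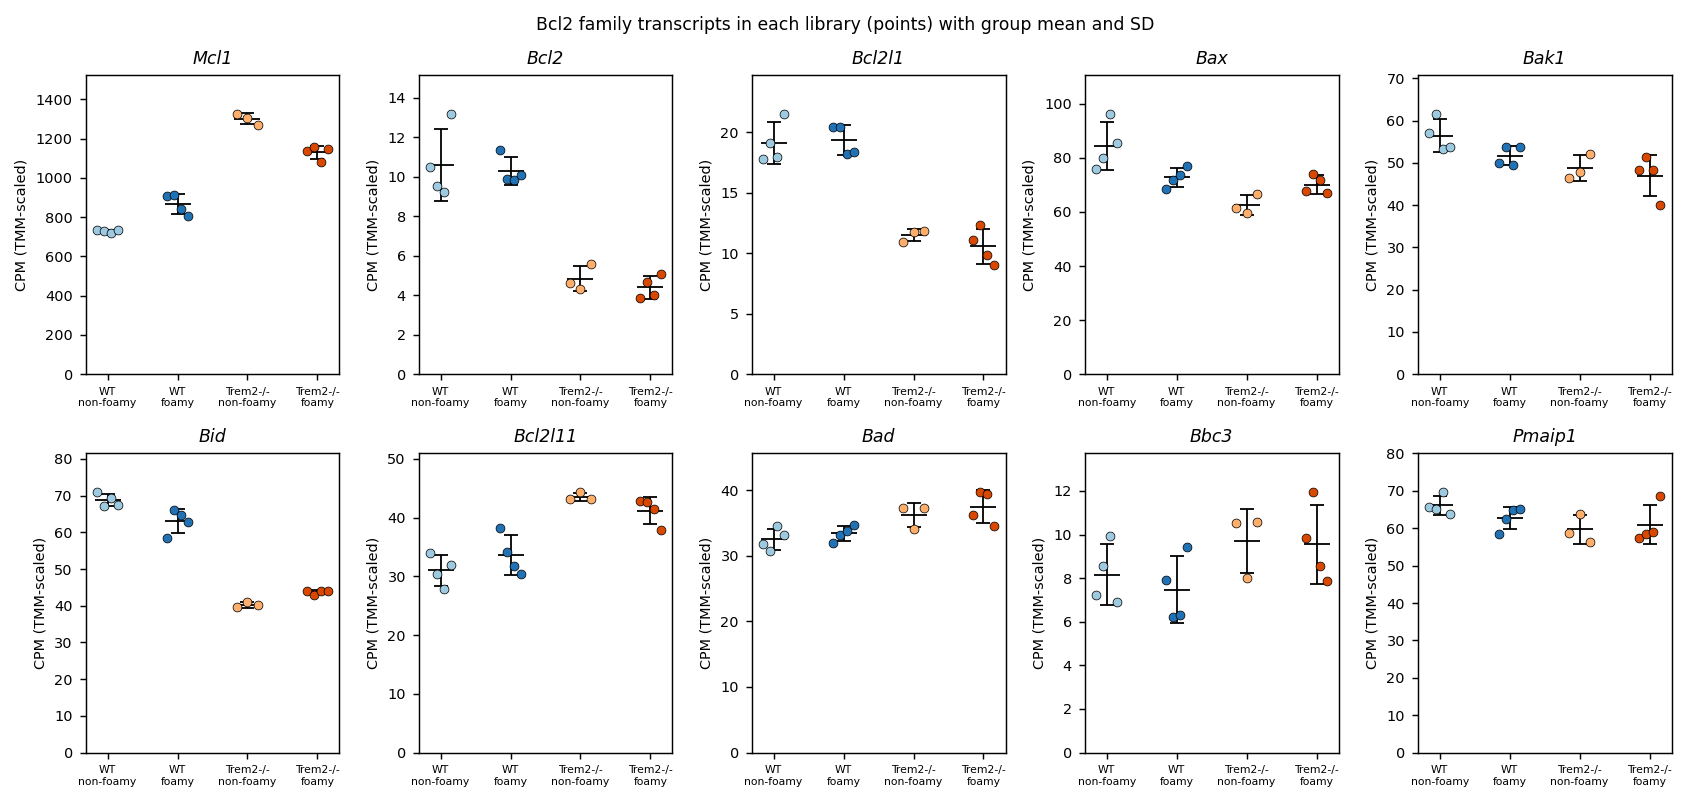
Levels of the 10 genes in each library. Each panel is 1 gene, the vertical axis gives CPM after TMM scaling from 0, points are libraries grouped by genotype and treatment, and bars are the group mean with its SD. Mcl1 lies higher, and Bcl2, Bcl2l1 and Bid lie lower, in every Trem2-/- library than in any WT library.

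Mcl1 (ENSMUSG00000038612, chr3:95658788-95663176, plus strand, GRCm38) was the most abundant of the 10 and the only one called for both genotype and cholesterol. It stood at 735, 728, 719 and 733 CPM in WT non-foamy libraries and at 907, 912, 840 and 807 CPM in WT foamy ones. In Trem2-/- cells it stood at 1328, 1305 and 1272 CPM without cholesterol and at 1137, 1157, 1080 and 1146 CPM with it. No 2 groups overlapped: WT foamy libraries lay above WT non-foamy ones, Trem2-/- foamy libraries lay above both, and Trem2-/- non-foamy libraries were the highest. The group means were 729 ± 7.13 (SD, n = 4), 866 ± 51.6 (SD, n = 4), 1301 ± 28.2 (SD, n = 3) and 1130 ± 34.3 CPM (SD, n = 4) in WT cells without and with cholesterol and in Trem2-/- cells without and with it. Against WT, Mcl1 was 1.79-fold higher in non-foamy Trem2-/- cells (log2 difference 0.84, s.e. 0.06, adjusted p = 2.86e-10) and 1.30-fold higher in foamy ones (0.38, s.e. 0.06, adjusted p = 2.07e-05).

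The promoter window of Mcl1 is shown together with that of Bax because these were the genes whose response to cholesterol differed between the genotypes. Each run holds the 250 bases before the RefSeq transcription start in GRCm38.p6, read 5′ to 3′ on the gene's strand, at chr3:95658471-95658720 (plus strand) for Mcl1 and chr7:45466899-45467148 (minus strand) for Bax. The RefSeq start of Mcl1 lies before the gene's first base in the GENCODE M21 annotation. Capitals mark matches to the motifs searched on both strands.
Mcl1: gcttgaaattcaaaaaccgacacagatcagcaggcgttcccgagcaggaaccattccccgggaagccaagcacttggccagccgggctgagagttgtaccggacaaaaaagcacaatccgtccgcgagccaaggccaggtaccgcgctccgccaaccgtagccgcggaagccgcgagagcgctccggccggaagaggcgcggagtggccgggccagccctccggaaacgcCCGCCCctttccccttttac
Bax: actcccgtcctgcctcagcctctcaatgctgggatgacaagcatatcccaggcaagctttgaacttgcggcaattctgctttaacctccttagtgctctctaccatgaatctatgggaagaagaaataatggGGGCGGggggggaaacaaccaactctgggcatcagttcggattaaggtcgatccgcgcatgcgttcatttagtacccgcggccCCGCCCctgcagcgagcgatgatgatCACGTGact
The Mcl1 window held 1 GC box (GGGCGG, here on the opposite strand), 20 bases before the start, and was 64.4% G and C. The Bax window was 54.0% G and C and held GC boxes 118 and 35 bases before the start, the latter on the opposite strand, and an E-box (CACGTG) at 9 bases. A GC box was present in 32.7% and an E-box in 6.02% of 32851 mouse promoter windows of this length. Neither window held the cAMP response element TGACGTCA, the CCAAT box CCAAT, the FOXO core GTAAACA or the C/EBP-ATF element TGATGCAA. Of the 10 genes, 9 were searched, some of them in more than 1 window, and Pmaip1 was left out with its chromosome. The FOXO core was found in 1 of 2 windows of Bcl2l11 and in 1 of 3 windows of Bbc3, beside 3.17% of all windows. These are matches of letters in a short window and say nothing about binding.

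The other pro-survival genes went the opposite way from Mcl1 between the genotypes. Bcl2 (ENSMUSG00000057329, chr1:106538178-106714274, minus strand) stood at 10.5, 9.50, 9.20 and 13.2 CPM in WT non-foamy libraries and at 11.4, 9.88, 9.81 and 10.1 CPM in WT foamy ones. It stood at 4.62, 4.33 and 5.56 CPM in Trem2-/- non-foamy libraries and at 3.84, 4.67, 4.02 and 5.05 CPM in Trem2-/- foamy ones. Every Trem2-/- library was below every WT library, at 0.455-fold of WT without cholesterol (log2 difference -1.14, s.e. 0.14, adjusted p = 9.39e-07) and 0.426-fold with it (-1.23, s.e. 0.13, adjusted p = 2.63e-07), while the treatments overlapped within each genotype. These levels rest on 120 to 591 reads per library, fewer than for Mcl1 or Bcl2l1. Of the exons of Bcl2, 6.09% lie opposite D630008O14Rik, which reached at most 0.440 CPM in any library.

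Bcl2l1 (ENSMUSG00000007659, chr2:152780668-152831728, minus strand), whose long form is Bcl-xL, was also lower in Trem2-/- cells. It stood at 17.8, 19.1, 17.9 and 21.5 CPM in WT non-foamy and 20.5, 20.4, 18.2 and 18.4 CPM in WT foamy libraries, beside 10.9, 11.8 and 11.8 CPM in Trem2-/- non-foamy and 11.1, 12.3, 9.81 and 8.98 CPM in Trem2-/- foamy ones. The genotypes did not overlap, and Trem2-/- cells had 0.601-fold of the WT level without cholesterol (log2 difference -0.73, s.e. 0.11, adjusted p = 7.80e-06) and 0.546-fold with it (-0.87, s.e. 0.10, adjusted p = 6.39e-07). Gene counts do not separate its long, pro-survival form from its short, death-promoting form. Cholesterol left no called difference in Bcl2 or Bcl2l1 in either genotype, with 95% intervals of -0.29 to 0.19 and -0.17 to 0.21 on the log2 scale in WT cells and -0.43 to 0.15 and -0.33 to 0.09 in Trem2-/- cells.

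Of the effectors, Bax differed between the genotypes in non-foamy cells and not detectably in foamy cells. Bax (ENSMUSG00000003873, chr7:45461697-45466898, minus strand) stood at 75.8, 79.8, 96.3 and 85.6 CPM in WT non-foamy libraries and at 61.4, 59.7 and 66.7 CPM in Trem2-/- non-foamy ones, without overlap. In foamy cells it stood at 68.6, 71.9, 73.5 and 77.1 CPM in WT and at 67.6, 74.0, 71.8 and 67.0 CPM in Trem2-/- libraries, which overlapped. Trem2-/- cells had 0.742-fold of the WT level without cholesterol (log2 difference -0.43, s.e. 0.08, adjusted p = 7.59e-05), and with cholesterol the difference was -0.05 (95% interval -0.19 to 0.08, adjusted p = 0.609). Of the exonic length of Bax, 12.2% is shared with Gm45808 on the same strand, so reads there could belong to either.

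Bak1 (ENSMUSG00000057789, chr17:27019810-27029009, minus strand) moved less. Its levels were 57.0, 61.7, 53.3 and 53.8 CPM in WT non-foamy and 46.3, 47.8 and 52.2 CPM in Trem2-/- non-foamy libraries, a 0.864-fold difference (log2 -0.21, s.e. 0.08, adjusted p = 0.0358). This call was lost when any of 4 of the 7 libraries was left out, with adjusted p up to 0.148 (without replicate 1 or 2 of either group). In foamy cells Bak1 spanned 49.4 to 53.7 CPM in WT and 40.0 to 51.4 CPM in Trem2-/- libraries and was not called (log2 difference -0.14, adjusted p = 0.171). A share of 25.5% of its exons lies opposite Ggnbp1, which reached at most 0.172 CPM in any library.

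The BH3-only genes split by member. Bid (ENSMUSG00000004446, chr6:120891930-120916853, minus strand), which caspase-8 cleaves to link death receptors to mitochondria, had the smallest p of the 10 in the test over the 4 groups. It stood at 71.0, 67.3, 69.4 and 67.5 CPM in WT non-foamy and 58.5, 66.0, 64.8 and 62.7 CPM in WT foamy libraries, against 39.6, 41.1 and 40.1 CPM in Trem2-/- non-foamy and 44.1, 42.8, 44.0 and 44.1 CPM in Trem2-/- foamy ones. Trem2-/- libraries lay far below WT ones, at 0.585-fold without cholesterol (log2 difference -0.77, s.e. 0.06, adjusted p = 8.09e-10) and 0.694-fold with it (-0.53, s.e. 0.05, adjusted p = 1.95e-07). Within each genotype, foamy and non-foamy libraries also did not overlap, yet neither response was called (adjusted p = 0.232 in WT and 0.791 in Trem2-/- cells). Of the exons of Bid, 17.7% lie opposite Bcl2l13, whose own level was 37.9 CPM in WT and 30.7 CPM in Trem2-/- non-foamy cells, and the strand setting of the counting is not given in the sources used here.

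Bcl2l11 (ENSMUSG00000027381, chr2:128126038-128162547, plus strand), which encodes the BH3-only protein Bim, was the other gene that was higher in Trem2-/- cells. It stood at 34, 30.5, 27.8 and 32 CPM in WT non-foamy and 43.2, 44.4 and 43.2 CPM in Trem2-/- non-foamy libraries, without overlap (1.4-fold, log2 difference 0.49, s.e. 0.08, adjusted p = 5.18e-05). In foamy cells the values were 38.2, 34.2, 31.7 and 30.4 CPM in WT and 42.8, 42.6, 41.5 and 37.8 CPM in Trem2-/- libraries (1.22-fold, log2 difference 0.29, s.e. 0.08, adjusted p = 0.00604). There 1 WT library exceeded 1 Trem2-/- library, and the call was lost with library totals in place of TMM factors (0.16, adjusted p = 0.246).

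Bad, Bbc3 and Pmaip1 were not called in these comparisons. Bad, whose protein is silenced by Akt phosphorylation, spanned 30.8 to 34.7 CPM in WT and 34.1 to 39.7 CPM in Trem2-/- libraries, with log2 differences between the genotypes of 0.16 (adjusted p = 0.0876) and 0.17 (adjusted p = 0.0669) without and with cholesterol. Of the exons of Bad, 20.5% lie opposite Gpr137, whose group means were 16.2 to 18.8 CPM, so reads there could belong to either. Bbc3, a p53 target, was among the lowest, at 6.21 to 9.95 CPM in WT and 7.87 to 12 CPM in Trem2-/- libraries, and its differences of 0.26 and 0.36 had wide 95% intervals of -0.06 to 0.59 and 0.05 to 0.66. Pmaip1, whose protein neutralises Mcl1, spanned 58.6 to 69.7 CPM in WT and 56.3 to 68.7 CPM in Trem2-/- libraries. Its non-foamy groups touched without overlapping (the lowest WT library and the highest Trem2-/- library both round to 63.9 CPM), with a log2 difference of -0.15 (adjusted p = 0.0997). With library totals in place of TMM factors Pmaip1 was called lower in Trem2-/- cells, at -0.29 without cholesterol (adjusted p = 0.000788) and -0.17 with it (adjusted p = 0.0229). In foamy cells Bad was called higher by DESeq2 (adjusted p = 0.0423) and without Trem2-/- foamy replicate 4 (adjusted p = 0.032). Bbc3 was called higher there with no filter on low counts (adjusted p = 0.0345) and without replicate 4 of either foamy group, at 0.44 (Trem2-/-) and 0.49 (WT).

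**Figure D2:**
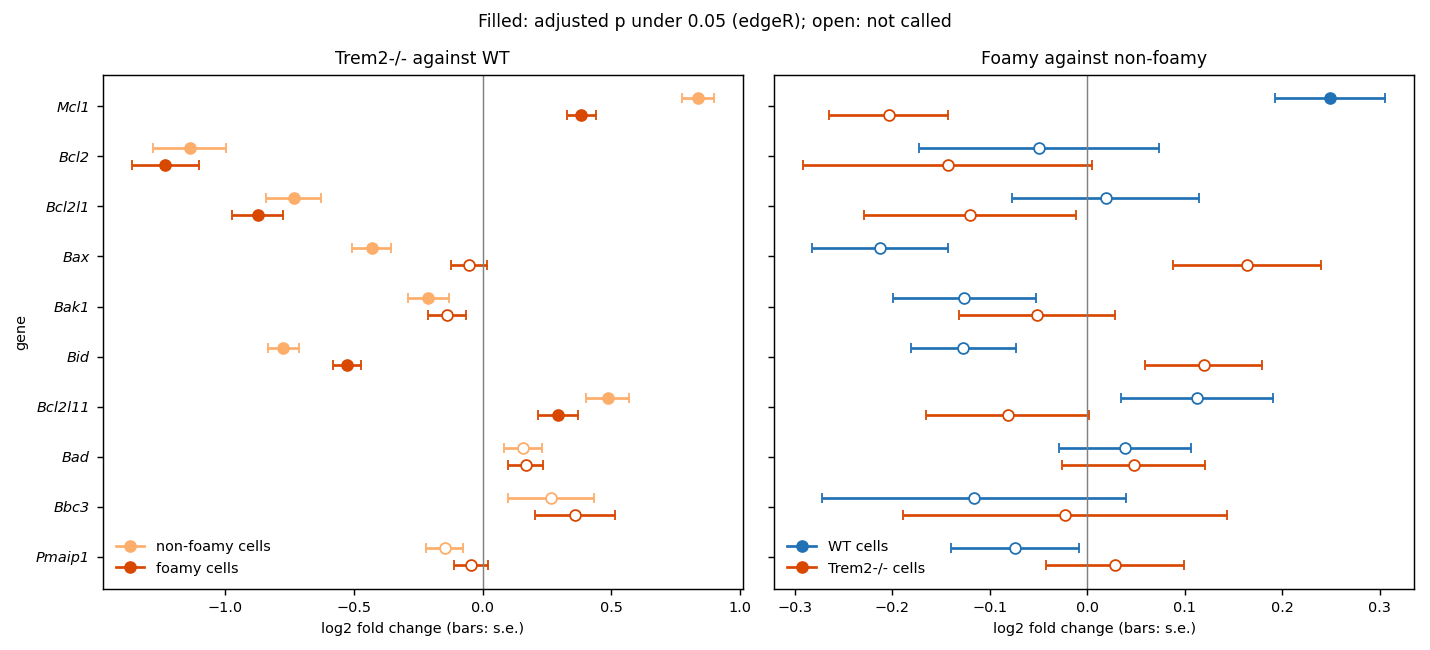
Log2 fold changes of the 10 genes. The left panel gives Trem2-/- against WT in non-foamy and foamy cells and the right panel foamy against non-foamy in each genotype, on separate horizontal scales, with bars for the s.e. and filled points for adjusted p under 0.05. Bcl2, Bcl2l1 and Bid lie left of 0 and Mcl1 and Bcl2l11 right of 0 in both genotype comparisons, and Mcl1 in WT cells, at 0.25, is the only filled point on the right.

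Counting the genes whose libraries did not overlap gives a similar picture between the genotypes, but not for the response of Trem2-/- cells to cholesterol. Between the genotypes, 8 of 10 did not overlap without cholesterol (all genes 46.1%) and 4 of 10 with it (all genes 28.8%). Between treatments, 2 of 10 did not overlap in WT cells (Mcl1 and Bid, all genes 9.71%). In Trem2-/- cells 4 of 10 did not overlap (Mcl1, Bcl2l11, Bid and Bax, all genes 9.26%), although none of them was called there. The genotype and treatment comparisons share libraries, so these counts are not independent of each other.

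The response to cholesterol was compared between the genotypes directly. In WT cells, Mcl1 rose 1.19-fold with cholesterol (log2 change 0.25, s.e. 0.06, adjusted p = 0.0181). This call was lost without WT foamy replicate 2 (adjusted p = 0.0907) and without WT non-foamy replicate 1 (adjusted p = 0.0557), with the change at 0.22 and 0.25, and when only the WT groups were fitted (adjusted p = 0.0948). In Trem2-/- cells, Mcl1 had a log2 difference of -0.20 with cholesterol (s.e. 0.06, adjusted p = 0.449), below every non-foamy library in all 4 foamy ones. The difference of these responses was -0.45 (s.e. 0.08, 95% interval -0.62 to -0.29, adjusted p = 0.00328) and stayed called in each alternative fit, with adjusted p of at most 0.0187.

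Bax had responses of the opposite signs, -0.21 in WT (adjusted p = 0.103) and 0.16 in Trem2-/- cells (adjusted p = 0.772), neither of them called. Their difference was called (0.38, s.e. 0.10, adjusted p = 0.0434), so that 2 of the 10 genes differed in their response, against 3.64% of all tested genes. The call for Bax rested on the full set of libraries, as it was lost in 11 of the 15 fits that left out 1 library, with differences of 0.31 to 0.42 and adjusted p from 0.0317 to 0.126 over all 15. Bid had the same signs as Bax, -0.13 and 0.12, with a difference of 0.25 that was not called (s.e. 0.08, adjusted p = 0.0931). DESeq2 did call this difference for Bid (0.25, adjusted p = 0.0361). For the other 7 genes the difference of the responses had an adjusted p of at least 0.403.

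**Figure D3:**
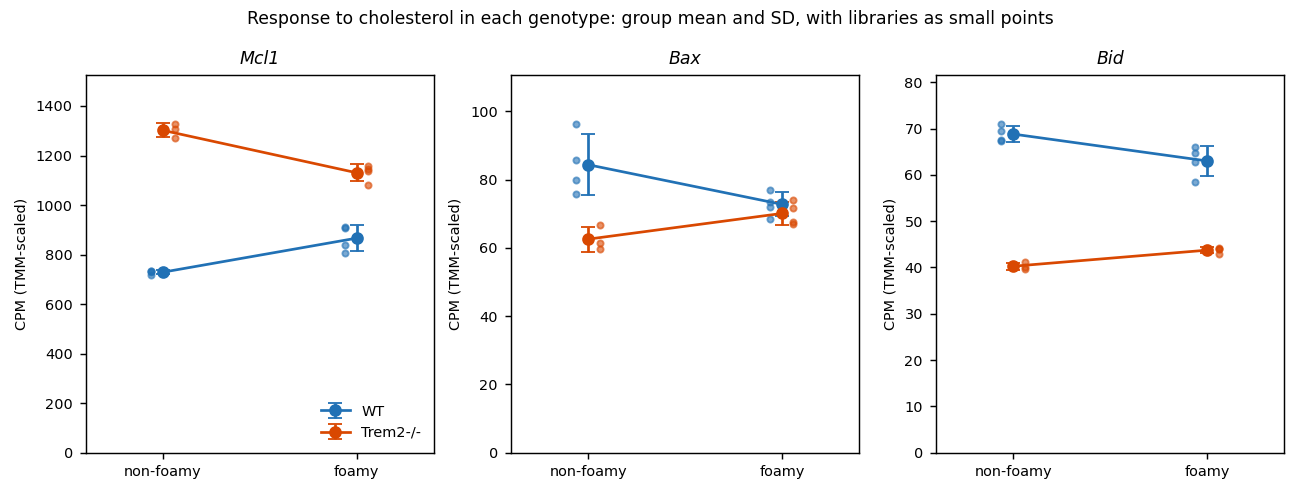
Mcl1, Bax and Bid without and with cholesterol. The vertical axis gives CPM after TMM scaling from 0, large points and bars are group means with SD, small points are libraries, and lines join the groups of a genotype. The lines for Mcl1 approach each other from 729 and 1301 CPM to 866 and 1130 CPM, and those for Bax meet near 70.1 to 72.8 CPM.

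The 4 groups were ordered by their mean CPM for each gene, and neighbours in that order were then compared. For Mcl1 it was Trem2-/- non-foamy, Trem2-/- foamy, WT foamy and WT non-foamy, with the first pair of neighbours not called different (adjusted p = 0.449) and the other neighbours called. For Bcl2, Bcl2l1, Bid and Bcl2l11 the only neighbours that differed were those on either side of the genotype boundary. For Bax, Bak1, Bad, Bbc3 and Pmaip1 no neighbours differed.

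Levels of different genes were compared per kilobase of exon. On this scale Mcl1 far exceeded the others, with means of 213 and 253 CPM per kb in WT cells without and with cholesterol and of 381 and 331 CPM per kb in Trem2-/- cells. In the same order, the effector Bax came next at 53.5, 46.2, 39.7 and 44.5 CPM per kb, and Bcl2 was the lowest at 1.16, 1.12, 0.528 and 0.480 CPM per kb. Bcl2l1 stood at 4.16, 4.22, 2.51 and 2.30 CPM per kb.

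Mcl1 thus made up most of the transcript of the 10 genes, and more of it in Trem2-/- cells. Its share of their length-scaled sum was 57.6 to 60.4% in WT non-foamy, 62.8 to 67.3% in WT foamy, 75.0 to 76.6% in Trem2-/- non-foamy libraries and 71.4 to 73.5% in Trem2-/- foamy libraries. The groups did not overlap. The level of Mcl1 was 51.5 ± 4.27 times that of Bcl2l1 in WT non-foamy cells (SD, n = 4) and 60.0 ± 1.26 times in WT foamy cells (SD, n = 4), and 152 ± 9.61 times (SD, n = 3) and 145 ± 19.3 times (SD, n = 4) in the matching Trem2-/- cells. These are ratios of transcripts per exon length, which take the annotated exons as all used, and say nothing of protein.

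**Figure D4:**
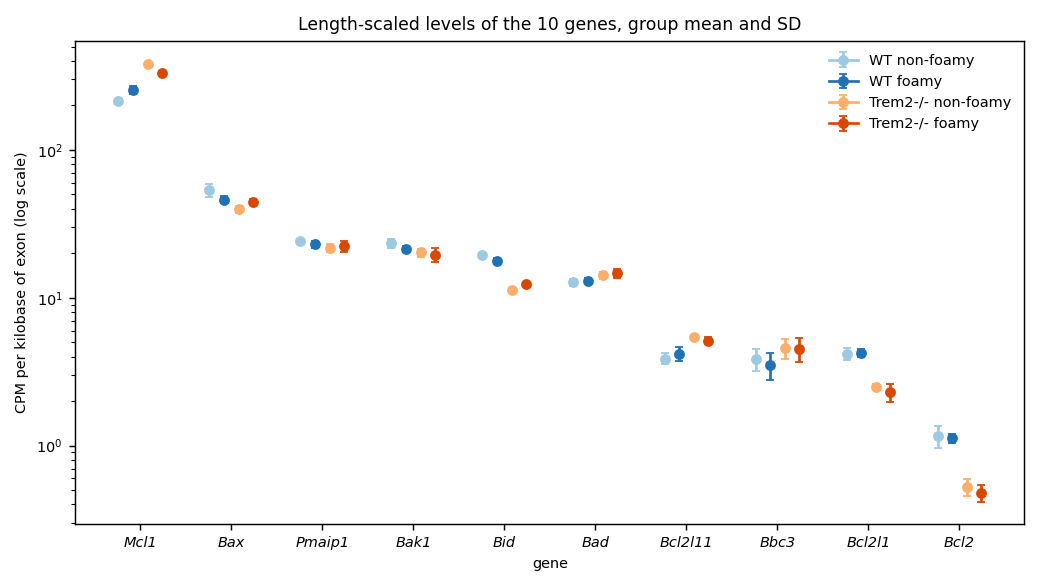
Length-scaled levels of the 10 genes. The vertical axis is CPM per kilobase of exon on a log scale, genes are ordered by their level, and points and bars are the group mean and SD. Mcl1 at 213 to 381 and Bcl2 at 0.480 to 1.16 CPM per kb are the ends of the range, and the genotypes separate most for Mcl1, Bid, Bcl2l1 and Bcl2.

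Genes among those most like Bid and Mcl1 over the 15 libraries, by the Pearson correlation of log2 CPM, were Rpl7l1 (0.992) and Zcwpw1 (0.991) for Bid, and Cyp4v3 (0.992), Cpeb4 (0.991) and Grb2 (0.991) for Mcl1. The libraries share 4 group means, and 317 and 260 of 14227 genes exceeded 0.95 with Bid and Mcl1, respectively, so these names describe the pattern and nothing more.

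The other genes of the death pathway were read from 6 lists, beside the 43.6% and 30.2% of all genes called between the genotypes without and with cholesterol. The median log2 difference from WT, without and with cholesterol, was 0.02 and 0.00 over all tested genes, 0.28 and 0.30 for the other family members, -0.165 and -0.073 for the apoptosome list, 0.13 and 0.01 for inhibitors of apoptosis, -0.07 and -0.012 for the death receptor arm, 0.065 and 0.01 for p53 pathway genes and -0.053 and -0.175 for upstream regulators.

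Of 15 other members of the family, 9 were tested. Without cholesterol 5 were called higher (all genes 21.0%) and 2 lower (all genes 22.6%) in Trem2-/- cells. With it 4 were called higher (all genes 14.3%) and the other 5 were not called. With library totals in place of TMM factors these became 3 higher and 2 lower, then 4 higher and 1 lower. Bmf, a BH3-only gene tied to the cytoskeleton, was 2.12-fold higher without cholesterol (log2 difference 1.09, s.e. 0.10, adjusted p = 5.99e-09) and 1.64-fold higher with it (0.71, adjusted p = 2.56e-06), and in WT cells it rose 1.30-fold with cholesterol (adjusted p = 0.0241, up to 0.117 with 1 library left out). The pro-survival Bcl2l2 (Bcl-w) was 1.28-fold and 1.34-fold higher, and Bnip3 and Bnip3l, receptors for the removal of mitochondria, were 1.18-fold to 1.27-fold higher. Bcl2a1b was 1.52-fold higher without cholesterol, which is uncertain because its near-identical copies share reads. Bcl2l13 and Bcl2l12 were 0.809-fold and 0.679-fold of WT there, both lost when some single libraries were left out (adjusted p up to 0.0950 and 0.134).

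Downstream of the mitochondria, Cycs, which encodes cytochrome c, had the largest difference. It averaged 128 ± 14 (SD, n = 4) and 45.0 ± 4.35 CPM (SD, n = 3) in non-foamy WT and Trem2-/- cells, and 90.5 ± 14.1 (SD, n = 4) and 57.2 ± 3.71 CPM (SD, n = 4) in foamy ones. It was 0.352-fold of WT without cholesterol (log2 difference -1.51, s.e. 0.11, adjusted p = 1.75e-10) and 0.632-fold with it (-0.66, adjusted p = 1.23e-05), fell to 0.707-fold with cholesterol in WT cells (adjusted p = 0.00397), and its responses differed by 0.85 (adjusted p = 0.00112). Cycs has processed pseudogenes that can take some of its reads. Of 16 genes of the apoptosome, caspases and mitochondrial release, 4 were above and 6 below the WT level in non-foamy cells, against 3 above and 1 below in foamy cells. With library totals these became 2 higher and 9 lower, then 2 higher and 6 lower. Apaf1, the core of the apoptosome, was 1.47-fold and 1.22-fold higher and Casp6 1.29-fold and 1.25-fold higher, and Casp9 was 1.19-fold higher without cholesterol. Vdac2, a Bak1 partner in the outer membrane, was 1.135-fold higher without cholesterol and 1.23-fold higher with it. The calls of Casp9 and Vdac2 without cholesterol (adjusted p = 0.00854 and 0.034) and of Apaf1 with it (adjusted p = 0.0118) were lost with library totals. The nuclease gene Endog was 0.641-fold of WT without cholesterol. Also lower there were Vdac1 (0.892-fold), Vdac3 (0.720-fold), Mtch2 (0.777-fold) and Aifm1 (0.781-fold).

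Of 11 inhibitors of apoptosis and their antagonists, 3 were higher and 2 lower in Trem2-/- cells in either state (3 and 3, then 3 and 2, with library totals). Naip5 and Naip2, which sense bacterial proteins, were 2.08-fold and 1.52-fold higher without cholesterol and 1.38-fold and 1.39-fold higher with it, and Naip6 was called higher without and Birc3 with cholesterol (1.4-fold and 1.25-fold), although reads may be shared between the Naip copies. Naip5 also rose 1.41-fold in WT cells with cholesterol (adjusted p = 0.00922), and its responses differed by -0.60 (adjusted p = 0.0258). That last call was lost without replicate 1 or 2 of the Trem2-/- non-foamy group or WT foamy replicate 2 (adjusted p up to 0.091). Birc5 (survivin), a mitotic gene as well, was 0.665-fold and 0.800-fold, and Htra2 0.764-fold and 0.851-fold of WT. The call of Htra2 in foamy cells (log2 difference -0.23, adjusted p = 0.0279) was lost without Trem2-/- foamy replicate 3 (adjusted p = 0.057), Trem2-/- foamy replicate 4 (-0.15, adjusted p = 0.111) and WT foamy replicate 4 (adjusted p = 0.0651). In the death receptor arm, 8 of 11 genes were tested. They gave 2 higher and 0 lower calls without cholesterol and 1 and 1 with it (1 and 3, then 0 and 1, with library totals). Cflar and Fas were higher without cholesterol, the latter at a mean of only 0.248 CPM over all libraries, and with it Ripk1 was higher and Fadd lower, at 1.13-fold and 0.801-fold. The calls of Cflar, Fas, Ripk1 and Fadd were each lost in some alternative fit, those of Cflar and Fas both without Trem2-/- non-foamy replicate 2. Casp8, which cleaves Bid, was not called.

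Of 16 p53 pathway genes, 14 were tested, of which non-foamy Trem2-/- cells had 3 above and 4 below the WT level and foamy ones 4 above and 3 below (3 and 5, then 2 and 5, with library totals). Gadd45a, a growth arrest gene, averaged 0.680 and 4.67 CPM in non-foamy WT and Trem2-/- cells and 1.08 and 4.23 CPM in foamy ones (6.93-fold and 3.90-fold, adjusted p = 4.41e-10 and 5.07e-08). Trp53inp1 was 2.87-fold and 1.83-fold higher, the nuclease gene Aen 0.395-fold and 0.557-fold, and Zmat3 0.607-fold and 0.714-fold of WT, the last call lost in several fits (adjusted p up to 0.142). The other higher genes were Ccng1 (log2 difference 0.31 and 0.22) and, with cholesterol, Sesn1 (0.19). The calls of Ccng1 and Sesn1 with cholesterol (adjusted p = 0.0392 and 0.0204) were lost with library totals. Trp53 itself was 0.726-fold and 0.740-fold of WT. Cdkn1a (p21), a classical p53 target, was 0.738-fold of WT in non-foamy Trem2-/- cells (adjusted p = 3.05e-05). It fell to 0.795-fold with cholesterol in WT cells (adjusted p = 0.00625), and its responses differed by 0.44 (adjusted p = 0.0132), a call lost without Trem2-/- non-foamy replicate 1 (adjusted p = 0.0579).

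Of 14 genes that act upstream of BH3-only genes or of Mcl1, 11 were tested, with 2 above and 3 below the WT level in non-foamy Trem2-/- cells and 1 above and 4 below in foamy ones (1 and 3, then 0 and 4, with library totals). Ddit3 (CHOP), the stress factor that can induce Bcl2l11, averaged 5.02 and 9.92 CPM in non-foamy WT and Trem2-/- cells and 6.25 and 8.39 CPM in foamy ones (2.0-fold, adjusted p = 3.16e-06, and 1.34-fold, adjusted p = 0.0136, the latter lost with library totals at 0.0758). Trib3 and Atf4, of the same stress pathway, were lower, at 0.586-fold and 0.776-fold of WT without cholesterol and 0.568-fold and 0.852-fold with it. E2f1 was 0.679-fold and 0.811-fold of WT. Huwe1, an E3 ligase for Mcl1 protein, was 0.800-fold with cholesterol, and Foxo1, a factor that can induce Bcl2l11, was 1.28-fold higher without it, both lost when some single libraries were left out (adjusted p up to 0.0948 and 0.0978), and Foxo1 also with library totals (adjusted p = 0.307).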

How the data were processed

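Gene counts of 15 BV2 libraries were used. The authors deposited raw read counts per gene, 1 table per library, with no normalization. Per the methods, reads were trimmed with Trimmomatic, aligned to GRCm38 with HISAT2 and counted with featureCounts within CHURP. The strand setting and the treatment of reads with several matches are not given in the sources used here, so overlapping and near-identical genes were described beside their values.

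Libraries were grouped by the labels. Counts of 54390 genes were filtered with filterByExpr (minimum count 10), which kept 14237 genes and 99.97% of counts, and scaled with TMM factors (0.918 to 1.11). All 15 libraries were fitted with 1 mean per group in edgeR 4.0.16 (R 4.3.3), with glmQLFit and then glmQLFTest, and p-values were adjusted by Benjamini-Hochberg over all tested genes (two-sided, threshold 0.05). The biological coefficient of variation was 10.2%. Chi-square per gene between replicates was 5.95 to 45.2 over 21 pairs. The s.e. is the absolute log2 difference divided by the square root of the test's F statistic. The 95% intervals are a normal approximation from this s.e. and are somewhat narrower than the test itself implies. For Bid in Trem2-/- cells with against without cholesterol, for example, the interval was 0.002 to 0.237 while the unadjusted p was 0.059. Alternatives were DESeq2 1.42.0, RLE factors, library totals alone, no filter, at least 10 counts in every library, the compared groups alone, a replicate block and leaving out each library.

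The 10 genes, the lists and the tests were chosen with earlier results of these data known. Text named the 10 genes, Trem2, up to 2 called genes of each list with the largest changes per direction and comparison at a mean of at least 1 CPM, and the 3 genes most correlated with Bid and with Mcl1, of which 1 is not reported here. Fas, Bnip3, Bnip3l, Bcl2l2 without cholesterol, Apaf1 with cholesterol, Casp8, Casp9, Naip6, Birc3, Ccng1, Sesn1, Trp53, Cdkn1a between the genotypes, Atf4, E2f1 with cholesterol, the markers and genes of the difference of the responses were named after their values were seen. So were Vdac1, Vdac3, Mtch2, Aifm1 and, without cholesterol, Vdac2. Exons came from GENCODE M21 (GRCm38) and promoter windows from RefSeq (GRCm38.p6). For the 10 genes, windows on chromosome 18, where Pmaip1 lies, were left out, so 9 of the 10 were searched. Libraries were simulated with a small share of genes changed, in foamy Trem2-/- cells alone (13962 genes tested). Against foamy WT cells, 92% of genes changed by a log2 fold of 1 and 80% of those changed by 0.5 were recovered, and 7.53% of calls were false. In the real comparison 30.2% of genes were called, so these rates need not hold there.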

Additional observations from a re-analysis of the deposited data

Results flagged for a closer look

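Of the 10 genes in the 3 groups of 4 libraries, 30 sets of values were screened for a library set apart from the other 3, where chance marks about 1 in 20. Bcl2 in WT foamy cells had 1 library at 11.4 CPM (gap over range 0.831). Bid in Trem2-/- foamy cells had 1 library at 42.8 CPM (0.877), although the whole group spanned little. Pmaip1 in Trem2-/- foamy cells had 1 library at 68.7 CPM (0.877).

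The response to cholesterol differed between the genotypes, by the test of the difference itself, for Mcl1 (log2 difference -0.45, adjusted p = 0.00328) and for Bax (0.38, adjusted p = 0.0434). All 4 Trem2-/- foamy libraries lay below all 3 non-foamy ones for Mcl1 and above them for Bax. In WT cells all 4 foamy libraries lay above the non-foamy ones for Mcl1, and for Bax the WT groups overlapped.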

How the results depend on the processing

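Of 790 gene-level values of the 10 genes under the alternatives, 758 kept their direction where called and their side of the threshold, 12 passed it newly, 20 lost it and none reversed. The count of the 10 genes called changed as follows. For WT foamy against WT non-foamy it was 2 with DESeq2 (Mcl1 and Bax), 0 with only those groups fitted (Mcl1 adjusted p = 0.0948) and 0 to 1 when a library was left out. For Trem2-/- foamy against non-foamy it was 1 with DESeq2 (Mcl1, adjusted p = 0.0203) and 0 when a library was left out. For the difference of the responses it was 3 with DESeq2 (Mcl1, Bax and Bid) and 1 to 2 when a library was left out. Between the genotypes it ranged from 6 to 8 without and from 5 to 7 with cholesterol. Replicate numbers do not pair the libraries, since deviations of same-numbered libraries correlated at -0.105 to 0.143 (21 pairs, 1 over 0.1). With a replicate block the count for the difference of the responses was 1, Bax having an adjusted p of 0.0528, and the block changed no other call of the 10 genes.

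Library totals alone shifted the median of all genes by -0.14 without and -0.13 with cholesterol and turned the calls between the genotypes from 2985 higher and 3222 lower to 1820 and 4379, and from 2036 and 2261 to 1115 and 3666. For the WT response the split was 237 and 162 against 179 and 249 (425 and 456 with DESeq2), and for the difference of the responses 284 and 234 against 397 and 168. Among the 10 genes, the calls with cholesterol were then 1 higher and 6 lower (Bcl2l11 lost, Bax, Bak1 and Pmaip1 lower), and without it 2 and 6. Over all genes, the WT response had 399 calls, 881 with DESeq2, 607 without a filter, 144 with only those groups and 146 to 526 with a library left out. The response of Trem2-/- cells had 20, 56, 61, 25 and 10 to 18, and the difference of the responses 518, 985 and 750, 294 with the block and 201 to 661. Of 687 values of list genes named by the rule above or for the difference of the responses, 62 lost their call and none reversed. The other genes and comparisons of the lists, named after their values were seen, were not among these values. Depth limits Bcl2 and Bbc3 most, at 120 to 591 and 206 to 376 reads per library.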
